A study of Sus scrofa with 2 samples.

Results

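Adrenergic and cAMP signalling was followed through 9 genes in nuclei from the heart of pigs: the receptors ADRB1 and ADRA1A, the adenylyl cyclases ADCY5 and ADCY6, the phosphodiesterases PDE4B, PDE4D and PDE3B, and the kinases PRKACA and PRKCA. They were chosen by symbol, and all 9 had a row among the 31908 genes of both count matrices. The study sequenced single nuclei from frozen tissue of the free wall of the left ventricle of Bama pigs, a small Chinese breed. The TG library came from the triple-transgenic genotype, written PNPLA3I148M-GIPRdn-hIAPP in the design text, and the WT library from the wild-type genotype. Both genotypes had received the high-fat, high-sucrose diet for 12 months, so no pig on a normal diet enters the comparison. There was 1 library per genotype. The promoters of the transgenes, the age of the pigs and the number of pigs in each library are not given in the sources used here. Genotype, animal and library therefore cannot be told apart, no test between genotypes was possible, and every interval covers counting error only. PNPLA3 had 33 UMIs in TG and 28 in WT cardiomyocyte-like nuclei and GIPR had 0 in both, and since it is not given whether transgene transcripts are counted under these genes, neither checks the genotype labels.

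Noradrenaline and adrenaline act on heart muscle through beta receptors, which couple to Gs and switch on adenylyl cyclase. The cAMP that is made activates protein kinase A, whose phosphorylation of calcium channels, ryanodine receptors and contractile proteins speeds and strengthens the beat, and phosphodiesterases break cAMP down again in local pools. Alpha-1 receptors couple instead to Gq, phospholipase C and protein kinase C, a branch linked to hypertrophic growth.

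The TG library held 89324966 unique molecular identifiers (UMIs, counts of single captured transcripts) over 15000 barcodes, and the WT library 127126477 over 18251. After filtering, 14939 TG nuclei with a median of 3937 UMIs and 16725 WT nuclei with a median of 5442 were clustered together and named by marker genes. Cardiomyocyte-like nuclei numbered 5290 in TG and 6769 in WT, and 7 other classes held at least 100 nuclei in each library. Outside the cardiomyocyte clusters, 1594 TG and 915 WT nuclei with at least 0.2% of their UMIs from FHOD3 and TECRL were set aside, and 201 TG and 94 WT nuclei lay between 0.15% and 0.25%. Clusters with markers of unrelated classes, 488 TG and 112 WT nuclei, were set aside as well. Some 81 barcode sequences occurred in both libraries. The 14 cardiomyocyte markers summed to 25349 CPM in TG and 28475 CPM in WT cardiomyocyte-like nuclei. In the 7 other classes the same sum was between 9793 and 14126 CPM in TG, against 3184 to 8298 CPM in WT. RYR2 UMIs outside cardiomyocyte-like nuclei likewise reached 4.37% to 12.9% of the cardiomyocyte level in TG and 1.26% to 7.69% in WT. Differences outside cardiomyocyte-like nuclei are therefore also given with the cardiomyocyte profile subtracted, where that alters a call. That subtraction follows the lower of the shares of RYR2 and CTNNA3. In mural-like nuclei FHOD3 and TECRL, by which nuclei were set aside, had lower shares. These were 4.75% and 4.91% in TG and 1.27% and 1.39% in WT, so RNA of the class's own may also be taken away there. The median of the 14 markers stood higher in the 7 other classes, at 42.0% to 52.1% of the cardiomyocyte level in TG and 14.6% to 37.2% in WT. Cardiomyocyte RNA may therefore remain after this subtraction. A second subtraction takes the summed profile of all nuclei of the library, which also holds RNA of the class itself. It removed 51.9% to 67.8% of the UMIs of these classes in TG and 19.9% to 47.8% in WT, and 0% in cardiomyocyte-like nuclei. RNA of the class's own can thus be lost, more so in TG. PDE4D was left at 0 CPM in TG macrophage-like nuclei, though 94.5% of them held a UMI of it. Calls lost or gained this way cannot decide where the RNA came from.

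Levels are counts per 1000000 nuclear-encoded UMIs (CPM), summed over the nuclei of a class. A gene was called higher or lower when the TG over WT ratio of CPM was at least 1.5 either way, with a 95% counting interval that left out 1, and when both libraries together held at least 20 UMIs. In cardiomyocyte-like nuclei the UMIs came from different clusters in each library. Clusters 1 and 8 held 3485 and 1441 of the TG nuclei, and clusters 0 and 3 held 4476 and 2167 of the WT nuclei.

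In cardiomyocyte-like nuclei 1 of the 9 genes was called: ADCY5, lower in TG. Over all measured genes of that class 8.74% were called lower and 25.6% higher, so 1 of 9 lower lies near the background, and 0 of 9 were called higher. The median log2 ratio of the 9 genes was -0.21, against 0.08 over all measured genes. The gene with most UMIs in TG cardiomyocyte-like nuclei took 13.9% of the UMIs of the class in TG and 6.37% in WT. Because CPM adds up to a fixed total, this gene taken alone lowers the CPM of the others more in TG than in WT. The median over all measured genes was nevertheless 0.08, and other ways of scaling moved the log2 ratios of the class further down. The shift was -0.099 under TMM scaling and -0.16 under median-of-ratios scaling. Across the 8 classes, 62 pairs of gene and class held enough UMIs and 30 pairs were called. The share of all measured genes called either way was 34.4% in cardiomyocyte-like, 25.6% in mural-like, 25.9% in fibroblast-like, 19.5% in vascular endothelial-like, 20.5% in lymphatic endothelial-like, 28.7% in macrophage-like, 30.9% in T or NK-like and 21.8% in Schwann or neural-like nuclei.

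**Figure D1:**
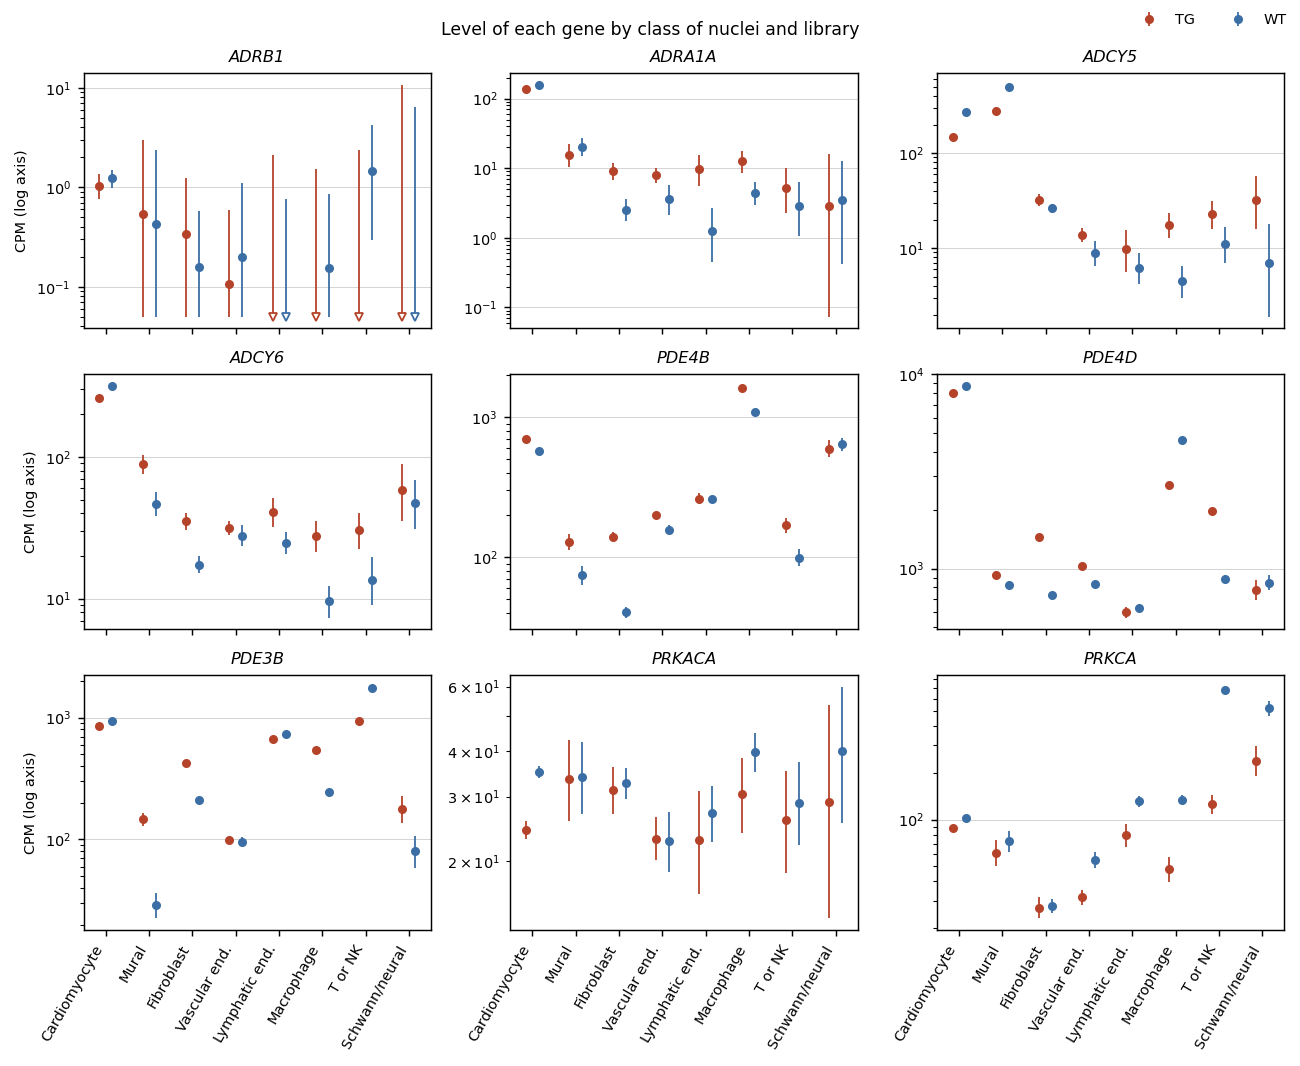
Level of each of the 9 genes in 8 classes of nuclei, in CPM on log axes, with TG (red) left of WT (blue). Points are class sums and bars exact Poisson 95% intervals, drawn down to 0.05 CPM at most; open triangles mark 0 UMIs. ADCY5 lay at 147 CPM in TG and 270 CPM in WT cardiomyocyte-like nuclei, and PDE4D at 8073 CPM in TG and 8733 CPM in WT.

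ADRB1 encodes the beta-1 receptor, the main beta receptor of ventricular muscle. It is a gene of 1.41 kb on chromosome 14 (ENSSSCG00000010647, chr14:124400330-124401739, Sscrofa11.1), and it was barely captured. Cardiomyocyte-like nuclei held 48 UMIs in TG and 92 in WT, or 1.03 CPM (0.762 to 1.37) in TG against 1.23 CPM (0.993 to 1.51) in WT. The ratio was 0.839 with an interval of 0.579 to 1.20, and a difference of that size was not detectable at this depth. A UMI of ADRB1 was found in 0.888% of TG and 1.34% of WT cardiomyocyte-like nuclei. No other class had more than 3 UMIs of ADRB1 in either library. In TG the lymphatic endothelial-like, macrophage-like, T or NK-like and Schwann or neural-like nuclei had 0 UMIs, with upper bounds between 1.54 and 10.7 CPM.

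ADRA1A, the alpha-1A receptor, is the Gq-coupled partner on the same cells (chr14:10623391-10733378). Its level in cardiomyocyte-like nuclei was 139 CPM (136 to 142) in TG and 155 CPM (152 to 158) in WT, a ratio of 0.898 that was not called. It was found in 49.3% of TG and 52.6% of WT cardiomyocyte-like nuclei. In both libraries the cardiomyocyte-like level was the highest of the 8 classes, followed by mural-like nuclei with 15.7 CPM in TG and 20.4 CPM in WT. Below these, the TG intervals of neighbouring classes overlapped throughout.

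ADRA1A was low in 4 classes in which it was called higher in TG. Fibroblast-like nuclei had 9.09 CPM in TG and 2.54 CPM in WT (ratio 3.58, 2.27 to 5.74), from 53 UMIs in TG and 32 in WT. Vascular endothelial-like nuclei had 7.94 CPM in TG and 3.61 CPM in WT, and this call rested on cluster 12, which held 2.44% of the TG and 18.9% of the WT nuclei of the class. Its 69 TG nuclei held 27 of the 74 TG UMIs, at 109.5 CPM, against 4.84 CPM in its 297 WT nuclei. Without cluster 12 the class had 5.18 CPM in TG and 3.50 CPM in WT (ratio 1.48, 0.825 to 2.80), which was not called. Lymphatic endothelial-like nuclei had 9.68 CPM in TG and 1.25 CPM in WT, from 17 UMIs in TG and 6 in WT, and macrophage-like nuclei had 12.5 CPM in TG and 4.48 CPM in WT. Summed cardiomyocyte markers were higher in TG in these 4 classes, but not only there. Their sum was also higher in TG in mural-like, T or NK-like and Schwann or neural-like nuclei. In mural-like nuclei the ADRA1A ratio was 0.767 and not called. T or NK-like and Schwann or neural-like nuclei held too few UMIs of ADRA1A for a call. With the cardiomyocyte profile of each library subtracted, ADRA1A was no longer called in fibroblast-like, lymphatic endothelial-like and macrophage-like nuclei. It kept its call in vascular endothelial-like nuclei at 2.40 CPM in TG and 0.0928 CPM in WT. In mural-like nuclei, where more than cardiomyocyte RNA may be taken away, it was then called lower, with 0 CPM in TG and 9.17 CPM in WT. With the profile of the whole library subtracted instead, ADRA1A was left at 0 CPM in both libraries in each of these classes.

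ADCY5 and ADCY6 are the calcium-inhibited cyclases that make most cAMP in heart muscle. ADCY5 (chr13:136965746-137133795) gave 6805 UMIs in TG and 20158 in WT cardiomyocyte-like nuclei, or 147 CPM (143 to 150) in TG against 270 CPM (266 to 274) in WT. The ratio was 0.543 (0.528 to 0.558), a log2 ratio of -0.88. ADCY5 was found in 57.1% of TG and 76.7% of WT nuclei, with a median of 1 UMI per nucleus in TG and 2 in WT. After every nucleus was thinned to 1000 UMIs the shares were 13.9% in TG and 21.4% in WT, so the lower share in TG was also seen at equal depth.

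The difference in ADCY5 appeared in each of the 4 cardiomyocyte clusters, although TG and WT nuclei were spread unequally over them. ADCY5 was at 114 CPM in TG and 264 CPM in WT in cluster 0, and at 142 CPM in TG and 248 CPM in WT in cluster 1. Cluster 3 had 136 CPM in TG and 279 CPM in WT, and cluster 8 had 156 CPM in TG and 235 CPM in WT. All 4 were called lower, although the smaller arms of clusters 0, 1, 3 and 8 held 305 TG, 96 WT, 59 TG and 30 WT nuclei. With the nuclei of each library split by depth into 3 groups of like size, TG had 159, 147 and 143 CPM in the low, middle and high group, against 274, 272 and 267 CPM in WT. In nuclei without any UMI of the vascular endothelial markers, 1182 in TG and 1865 in WT, ADCY5 was at 148 CPM in TG and 257 CPM in WT.

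**Figure D2:**
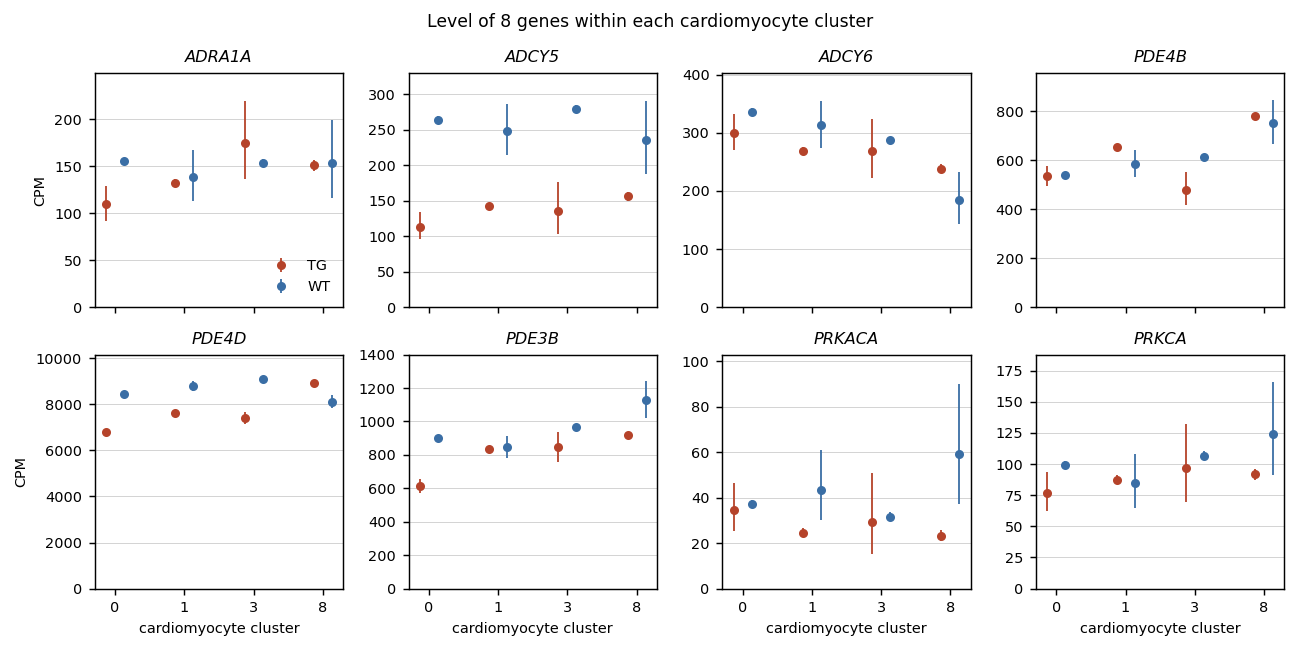
Level of 8 genes in CPM within each of the 4 cardiomyocyte clusters, TG (red) left of WT (blue), with exact Poisson 95% intervals and axes from 0. ADRB1 is left out for its low counts. ADCY5 lay between 114 and 156 CPM in TG and between 235 and 279 CPM in WT, with no overlap in any cluster.

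ADCY6 (chr5:14834420-14855309) was at 259 CPM (254 to 263) in TG and 314 CPM (310 to 318) in WT cardiomyocyte-like nuclei. Its ratio of 0.823 (0.805 to 0.841) was not called. It was found in 79.1% of TG and 88.7% of WT nuclei, and its level varied with depth in both libraries, with 317, 288 and 228 CPM in the low, middle and high depth group in TG and 397, 344 and 276 CPM in WT. Per kb of gene, ADCY6 was the highest of the 9 genes, with 12.4 CPM per kb in TG and 15.1 CPM per kb in WT. ADCY5 had 0.872 CPM per kb in TG and 1.61 CPM per kb in WT. This scale divides CPM by the whole span of the gene. Whether UMIs from 3' chemistry rise with that span was not tested, and whether intron reads were counted is not given. Without adjustment for gene length, ADCY5 made up 36.2% of the UMIs of ADCY5 and ADCY6 together in TG and 46.2% in WT. Of all 10 listed adenylyl cyclases it made up 27.4% in TG and 39.7% in WT.

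Mural-like nuclei, which hold pericyte and smooth muscle markers, had the highest ADCY5 level of any class: 278 CPM (254 to 303) in TG and 495 CPM (467 to 524) in WT. ADCY5 was lower in TG there too, with a ratio of 0.561 (0.505 to 0.623). With the profile of the whole library subtracted it was at 469 CPM in TG and 664 CPM in WT and was not called. In the 8 genes measured in mural-like nuclei, 1 was lower and 3 were higher, against 7.61% of all measured genes lower and 18.0% higher. Cluster 20 held 8 TG and 198 WT mural-like nuclei, and within cluster 11 alone ADCY5 was at 277 CPM in TG and 540 CPM in WT. Smooth muscle markers were also lower in TG mural-like nuclei, 7 of 10 called with summed levels of 7321 CPM in TG and 11484 CPM in WT. Pericyte markers, 3 of 10 called lower, summed to 3012 CPM in TG and 4383 CPM in WT. Their part in the ADCY5 result was not tested.

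ADCY6 in mural-like nuclei went the other way, with 89.2 CPM in TG and 46.8 CPM in WT (ratio 1.91, 1.49 to 2.45). Within cluster 11 the ratio was 1.47 and not called. ADCY6 was also higher in TG fibroblast-like nuclei, with 35.3 CPM in TG and 17.4 CPM in WT (ratio 2.03), and in macrophage-like nuclei, with 27.5 CPM in TG and 9.57 CPM in WT. Lymphatic endothelial-like nuclei had 41.0 CPM in TG and 24.7 CPM in WT, and T or NK-like nuclei 30.4 CPM in TG and 13.5 CPM in WT, both called higher. Under the subtraction of the cardiomyocyte profile the T or NK-like call was lost. With the profile of the whole library subtracted instead, ADCY6 was left at 0 CPM in both libraries in each of these classes.

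ADCY5 outside muscle was at low levels, and summed cardiomyocyte markers were higher in TG in all 7 classes outside cardiomyocyte-like nuclei. It was called higher in macrophage-like nuclei, with 17.5 CPM in TG and 4.48 CPM in WT (42 UMIs in TG and 29 in WT). It was called higher in T or NK-like nuclei, with 22.7 CPM in TG and 11.09 CPM in WT, and in vascular endothelial-like nuclei, with 13.8 CPM in TG and 8.82 CPM in WT. These 3 calls held when the cardiomyocyte profile was subtracted. With the profile of the whole library subtracted instead, ADCY5 was left at 0 CPM in both libraries in these 3 classes, and none of these calls remained. The vascular endothelial-like one was lost without cluster 12, which held 46 of 129 TG UMIs and had 187 CPM in TG and 29.0 CPM in WT. The rest of the class had 9.14 CPM in TG and 6.99 CPM in WT (ratio 1.31, 0.860 to 2.03). It also turned with the clustering and other choices of processing, down to a log2 ratio of -0.56. Fibroblast-like nuclei had 32.1 CPM in TG and 26.3 CPM in WT and were not called.

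**Figure D3:**
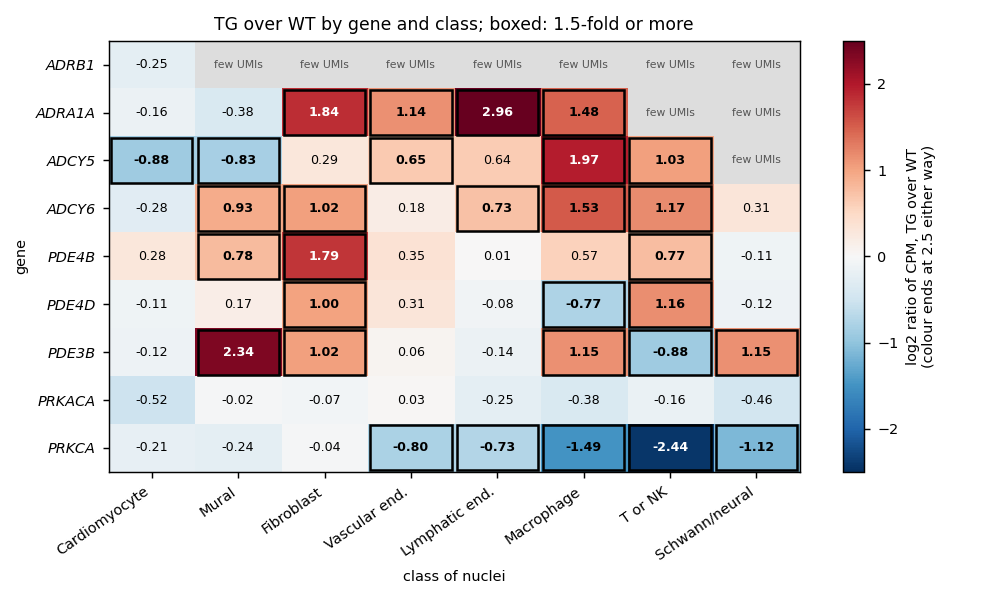
Log2 ratio of CPM, TG over WT, for each gene (rows) and class (columns); red is higher and blue lower in TG, boxes mark called pairs, and grey cells had under 20 UMIs. PRKCA was called lower in 5 classes, down to -2.44 in T or NK-like nuclei, and PRKACA was called in none.

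PDE4D is the cAMP-specific phosphodiesterase that sits on ryanodine receptors and other complexes in heart muscle. It lies at chr16:37897300-39406534, the longest of the 9 genes, and had 5.35 CPM per kb in TG and 5.79 CPM per kb in WT cardiomyocyte-like nuclei, below ADCY6 on that scale. Its level was 8073 CPM in TG and 8733 CPM in WT (ratio 0.924, 0.921 to 0.928), with a median of 56 UMIs per nucleus in TG and 82 in WT. It was found in 98.7% of TG and 98.4% of WT nuclei, and the ratio was not called. Its level went up with depth in both libraries, with 7132, 7583 and 8576 CPM in the low, middle and high depth group in TG and 7741, 8327 and 9229 CPM in WT. Of the UMIs of 16 cAMP phosphodiesterases, PDE4D made up 41.3% in TG and 40.8% in WT cardiomyocyte-like nuclei.

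PDE4B, a second cAMP-specific enzyme that limits the calcium current in rodent heart muscle, lies at chr6:146167262-146720105. It was at 697 CPM (689 to 704) in TG and 574 CPM (568 to 579) in WT cardiomyocyte-like nuclei, a ratio of 1.21 that was not called. PDE4B made up 7.94% of the PDE4B and PDE4D UMIs in TG and 6.17% in WT. PDE3B, an enzyme inhibited by cGMP and known for insulin's block of fat breakdown in adipocytes, lies at chr2:44416934-44614075. It had 858 CPM (850 to 867) in TG and 931 CPM (924 to 938) in WT, a ratio of 0.922 that was not called.

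In fibroblast-like nuclei all 3 phosphodiesterases were higher in TG. There 5 of 8 measured genes were called higher and 0 lower, against 17.0% of all measured genes higher and 8.91% lower, and the median log2 ratio was 1.01 for the 8 genes against 0.05 for all genes. PDE4B had 141 CPM (131 to 151) in TG and 40.5 CPM (37.1 to 44.2) in WT, a ratio of 3.47. PDE4D had 1462 CPM in TG and 730 CPM in WT (ratio 2.00), and PDE3B had 425 CPM in TG and 209 CPM in WT (ratio 2.03). PDE4D made up 26.7% of the phosphodiesterase UMIs of these nuclei in TG and 13.6% in WT. After the cardiomyocyte profile was subtracted, PDE4D stood at 1160 CPM in TG and 600 CPM in WT (ratio 1.93), and all 3 stayed called. With the profile of the whole library subtracted instead, at 63.1% of the UMIs of these nuclei in TG and 24.5% in WT, none of the 3 was called higher: PDE4B and PDE4D were left at 0 CPM in both libraries, and PDE3B at 0 CPM in TG and 31.6 CPM in WT.

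Fibroblast-like nuclei of the libraries fell into different clusters, and the sizes of these differences varied between them. Cluster 5 held 1822 of 2000 TG nuclei and cluster 2 held 2262 of 3065 WT nuclei. Cluster 16 held nuclei of both, 133 in TG and 545 in WT, and there PDE4B was at 78.3 CPM in TG and 45.3 CPM in WT (ratio 1.73). In the same cluster PDE3B had a ratio of 1.74, PDE4D of 1.27 and ADCY6 of 0.993, of which PDE3B was called. In cluster 14, with 41 TG and 234 WT nuclei, PDE4B, PDE4D, PDE3B, ADCY6 and ADRA1A were all called higher. The levels there lay above those of the class. ADRA1A was at 109 CPM in TG and 13.4 CPM in WT, ADCY6 at 150 CPM in TG and 56.2 CPM in WT, and PDE4D at 3959 CPM in TG and 2015 CPM in WT. The part of other cell types in this cluster was not tested. Without it all 5 genes stayed called in the class, with ADRA1A at 6.51 CPM in TG and 2.21 CPM in WT (ratio 2.95).

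Macrophage-like nuclei had the highest PDE4B level of the 8 classes and the second highest of PDE4D, and the balance of these enzymes differed between the libraries. Here 4 of 8 measured genes were called higher and 2 lower, against 20.7% of all measured genes higher and 7.93% lower. PDE4D had 2689 CPM (2624 to 2756) in TG and 4594 CPM (4542 to 4646) in WT, a ratio of 0.585. PDE4B had 1626 CPM in TG and 1093 CPM in WT, and its ratio of 1.49 lay just under the 1.5 needed for a call. With the cardiomyocyte profile subtracted it was called higher, at 1674 CPM in TG and 1099 CPM in WT (ratio 1.52). With the profile of the whole library subtracted PDE4B was also called higher, at 2179 CPM in TG and 1180 CPM in WT. PDE4D was then left at 0 CPM in TG and 3843 CPM in WT. PDE4B made up 37.7% of the PDE4B and PDE4D UMIs in TG and 19.2% in WT.

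In macrophage clusters 7 and 13 the ratios lay on the same sides of 1 as in the class, at other sizes. In cluster 7, with 406 TG and 1088 WT nuclei, PDE4B had 2586 CPM in TG and 1218 CPM in WT, and PDE4D had 3609 CPM in TG and 5070 CPM in WT (ratio 0.712, not called). In cluster 13, with 214 TG and 443 WT nuclei, the ratio of PDE4B was 1.19 and that of PDE4D 0.680, neither called. Cluster 23, with 94 TG and 13 WT nuclei, was too small in WT for a ratio. PDE3B was higher in TG macrophage-like nuclei, with 540 CPM in TG and 243 CPM in WT (ratio 2.22), and its ratio was 1.47 in cluster 7 and 1.87 in cluster 13.

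In T or NK-like nuclei PDE4D was higher and PDE3B lower in TG, both opposite in direction to macrophage-like nuclei, and PDE4B was higher. Of 7 measured genes, 4 were called higher and 2 lower, against 20.5% and 10.4% of all measured genes. PDE4D had 1975 CPM (1906 to 2046) in TG and 884 CPM (844 to 926) in WT, a ratio of 2.23. PDE3B, whose level in these nuclei was the highest of the 8 classes in both libraries, had 944 CPM (896 to 994) in TG and 1743 CPM (1686 to 1801) in WT, a ratio of 0.542. PDE4B had 170 CPM in TG and 99.3 CPM in WT (ratio 1.71). With the profile of the whole library subtracted, PDE4D and PDE4B were left at 0 CPM in both libraries, while PDE3B stayed called lower. PDE3B made up 59.6% of the PDE3A and PDE3B UMIs in TG and 82.7% in WT, and PDE4D 38.6% of all cAMP phosphodiesterase UMIs in TG and 18.3% in WT.

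The T or NK-like cluster did not carry its own markers equally in the libraries. Of 13 measured T or NK markers 6 were lower and 1 higher in TG, with summed levels of 4463 CPM in TG and 7912 CPM in WT, and 15 of 15 vascular endothelial markers were higher, at 1669 CPM in TG and 474 CPM in WT. In the nuclei of this cluster with 0 UMIs of those endothelial markers, 204 in TG and 369 in WT, PDE4D was at 1865 CPM in TG and 821 CPM in WT. PDE3B was at 1132 CPM in TG and 1813 CPM in WT (ratio 0.624), also called lower. PDE4B had a ratio of 2.40 in these nuclei.

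PDE3B in mural-like nuclei had the largest ratio of a whole class among the phosphodiesterases of the 9 genes, 5.06 (3.87 to 6.70), with 146 CPM in TG and 28.9 CPM in WT. It was found in 17.5% of TG and 5.67% of WT mural-like nuclei. In cluster 11 alone the levels were 148 CPM in TG and 26.0 CPM in WT. With the profile of the whole library subtracted, PDE3B was left at 0 CPM in both libraries and was not called. PDE3A, the related enzyme, supplied most of the UMIs of the pair, and PDE3B made up 3.62% of them in TG and 0.827% in WT. All 15 vascular endothelial markers were higher in TG mural-like nuclei (1860 CPM in TG, 750 CPM in WT), and in mural-like nuclei without their UMIs PDE3B was at 113 CPM in TG and 19.3 CPM in WT.

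PDE4B was called higher in mural-like nuclei as well, with 128 CPM in TG and 74.5 CPM in WT (ratio 1.72), but not after the cardiomyocyte profile was subtracted (43.9 CPM in TG, 32.7 CPM in WT). PDE4D in mural-like nuclei depended on which nuclei entered. It had 928 CPM in TG and 823 CPM in WT over the class, 914 CPM in TG and 311 CPM in WT in cluster 11 alone (called higher), and 716 CPM in TG and 978 CPM in WT in nuclei without endothelial marker UMIs. Subtraction of the cardiomyocyte profile left 0 CPM in TG and 163 CPM in WT, which was called lower. Before it, 70.3% of TG mural-like nuclei held a UMI of PDE4D, so more than cardiomyocyte RNA may have been taken away.

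In vascular endothelial-like nuclei 2 of 8 measured genes were called higher and 1 lower, against 11.9% and 7.67% of all measured genes. In lymphatic endothelial-like nuclei the same counts stood against 12.2% and 8.26%. PDE4B, PDE4D and PDE3B were called in neither class as a whole. With the profile of the whole library subtracted, PDE4B was called lower in lymphatic endothelial-like nuclei, with 0 CPM in TG and 183 CPM in WT. In vascular endothelial cluster 12 alone PDE4D had 5675 CPM in TG and 1695 CPM in WT (ratio 3.35), and PDE3B 487 CPM in TG and 60.4 CPM in WT (ratio 8.05), both called higher. Its 69 TG nuclei also had ADCY5 at 187 CPM, against 147 CPM in TG cardiomyocyte-like nuclei. The part of other cell types in cluster 12 was not tested. PDE3B, for example, had 668 CPM in TG and 735 CPM in WT lymphatic endothelial-like nuclei, below the T or NK-like and cardiomyocyte-like levels in both libraries. After subtraction of the cardiomyocyte profile PDE4D was called lower in lymphatic endothelial-like nuclei, with 278 CPM in TG and 475 CPM in WT, and in Schwann or neural-like nuclei, with 474 CPM in TG and 715 CPM in WT. In Schwann or neural-like nuclei 1 of 6 measured genes was higher and 1 lower, against 13.1% and 8.74% of all measured genes. The higher one was PDE3B, with 177 CPM in TG and 80.0 CPM in WT (61 UMIs in TG and 46 in WT). It was left at 0 CPM in both libraries when the profile of the whole library was subtracted.

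PRKACA encodes the main catalytic subunit of protein kinase A (chr2:65074876-65095564). In cardiomyocyte-like nuclei it had 24.4 CPM (23.0 to 25.8) in TG and 34.997 CPM (33.7 to 36.4) in WT. The ratio of 0.696 (0.649 to 0.747) fell short of a call, while under TMM scaling, median-of-ratios scaling and thinning PRKACA joined ADCY5 among the genes called lower. It was found in 18.0% of TG and 28.6% of WT nuclei, and in 2.31% of TG and 3.74% of WT nuclei at 1000 UMIs. Its level was close to even over the 8 classes, between 22.8 and 33.5 CPM in TG and between 22.6 and 39.98 CPM in WT, and it was called in none of them. PRKACA made up 7.81% of the PRKACA and PRKACB UMIs in TG and 9.41% in WT cardiomyocyte-like nuclei.

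PRKCA encodes protein kinase C alpha, the main conventional isoform of heart muscle and a regulator of its contractility in mice (chr12:12882287-13268647). In cardiomyocyte-like nuclei it had 88.7 CPM (86.0 to 91.5) in TG and 102 CPM (100.005 to 105) in WT, a ratio of 0.867 that was not called. It was lower in TG in 5 of the other 7 classes, and the mural-like and fibroblast-like ratios of 0.844 and 0.974 were not called. Vascular endothelial-like nuclei had 31.5 CPM in TG and 54.9 CPM in WT (ratio 0.574), and lymphatic endothelial-like nuclei 79.1 CPM in TG and 131 CPM in WT (ratio 0.604).

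The lowest ratio of PRKCA was in T or NK-like nuclei, with 126 CPM (109 to 145) in TG and 682 CPM (647 to 718) in WT, a ratio of 0.184 (0.158 to 0.214). PRKCA was found in 23.4% of TG and 69.5% of WT nuclei of this class, and in 10.7% of TG and 42.7% of WT nuclei at 1000 UMIs. In WT this was the highest PRKCA level of the 8 classes, while in TG it came after Schwann or neural-like nuclei. In the nuclei of the class without endothelial marker UMIs it was 135 CPM in TG and 753 CPM in WT. The lower T or NK markers in TG, given above, accompany this result, and their part in it was not tested.

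Macrophage-like nuclei had 48.0 CPM of PRKCA in TG and 134 CPM in WT (ratio 0.357, 0.291 to 0.434). The ratio was 0.384 in cluster 7 and 0.555 in cluster 13, both called lower. Schwann or neural-like nuclei had 238 CPM in TG and 520 CPM in WT (ratio 0.459, 0.355 to 0.587), and 6 of 10 Schwann or neural markers were lower in TG as well, with summed levels of 19757 CPM in TG and 31579 CPM in WT. The part of these markers in the result was not tested.

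**Figure D4:**
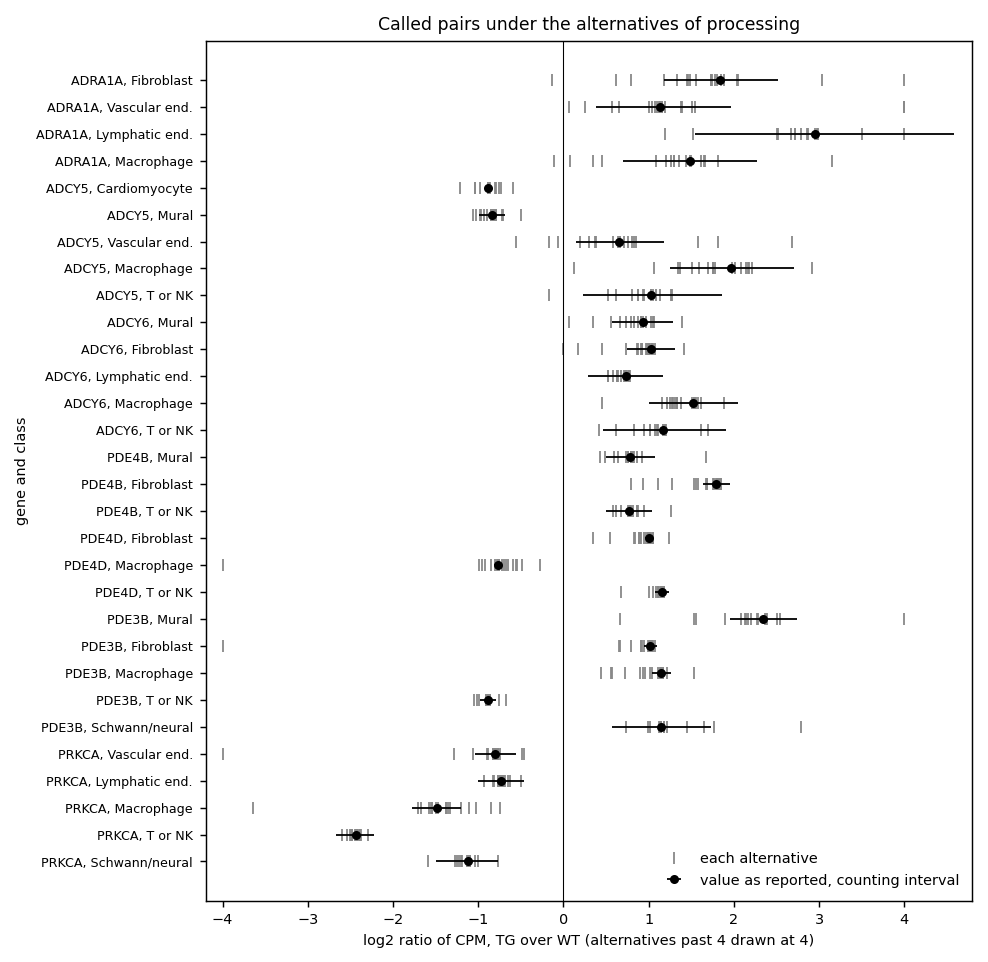
The 30 called pairs of gene and class, as log2 ratios of CPM, TG over WT. Black points and bars are the reported values with counting intervals, and grey ticks the values under other choices of processing. ADCY5 in cardiomyocyte-like nuclei stayed between -1.21 and -0.59, whereas ADCY5 in vascular endothelial-like nuclei fell on both sides of 0.

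The other genes of the pathway were described from lists ordered by role. In cardiomyocyte-like nuclei, 115 of 122 such genes held enough UMIs, of which 29 were higher and 14 lower in TG. The shares among these genes are near the background of 25.6% higher and 8.74% lower over all measured genes. Markers of other classes were also called higher in TG cardiomyocyte-like nuclei. These were 13 of 15 measured vascular endothelial, 8 of 12 fibroblast, 7 of 10 pericyte and 7 of 13 macrophage markers, with 0 lower. Of smooth muscle markers 3 of 10 were higher and 3 lower, and of adipocyte markers 1 of 8 higher and 2 lower. The part of RNA from other classes in the calls of the lists was not tested. Among receptors, 7 of 15 measured were higher and 2 lower, both receptors of the 9 genes included. PTGER3, a prostaglandin E receptor that mainly couples to Gi and the gene of highest CPM in the list, had 2191 CPM in TG and 1571 CPM in WT and was not called. GLP1R, the receptor of the incretin GLP-1, was higher from 16 UMIs in TG and 4 in WT, and PTH1R had 2.11 CPM in TG and 0.696 CPM in WT. CHRM2, the Gi-coupled muscarinic receptor, was lower with 712 CPM in TG and 1124 CPM in WT (ratio 0.633); it falls outside the naming rule and was named after its values were seen.

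None of 7 measured G protein alpha subunits was called, and GNAI1 had 85.3 CPM in TG and 113 CPM in WT. Of 9 measured cyclases, 4 were higher and 1, ADCY5, was lower, against 25.6% higher and 8.74% lower over all measured genes of the class. ADCY8, a calcium-stimulated cyclase, had 44.7 CPM in TG and 13.2 CPM in WT (ratio 3.38, 3.13 to 3.65), and ADCY4 had 0.840 CPM in TG and 0.120 CPM in WT. ADCY9 had 60.05 CPM in TG and 54.4 CPM in WT and was not called. Among 16 phosphodiesterases 8 were higher and 0 lower, against the same background, and none of the 8 was one of the 9 genes. The part of RNA from other classes, of which many markers were also higher in TG cardiomyocyte-like nuclei, was not tested. PDE7B had 91.4 CPM in TG and 4.22 CPM in WT (ratio 21.7, 19.3 to 24.4), and PDE4C 1.75 CPM in TG and 0.147 CPM in WT. PDE3A, the gene of highest CPM in the list, had 8795 CPM in TG and 10159.9 CPM in WT and was not called.

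Downstream of cAMP, most genes were not called. The background of the class was again 25.6% higher and 8.74% lower. Of 9 subunits and inhibitors of protein kinase A, 2 of low level were higher (PKIB and PRKAR2B), and PRKACB had 287 CPM in TG and 337 CPM in WT. Of 10 anchoring proteins, AKAP12 was higher and AKAP7, which ties protein kinase A to phospholamban and calcium channels, was lower with 43.7 CPM in TG and 68.2 CPM in WT. PDE4DIP, the anchor of highest CPM, had 1592 CPM in TG and 1838 CPM in WT. Among 7 other cAMP effectors 2 were higher. RAPGEF3, the exchange factor EPAC1, was higher with 1.06 CPM in TG and 0.442 CPM in WT, and RAPGEF4, the exchange factor EPAC2, had 325 CPM in TG and 362 CPM in WT. Of 10 substrates of protein kinase A, 1 was lower: PPP1R1A, an inhibitor of protein phosphatase 1, with 2.05 CPM in TG and 3.98 CPM in WT. RYR2, the ryanodine receptor, had 16020.2 CPM in TG and 21126 CPM in WT (ratio 0.758, not called).

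Among 10 genes of desensitisation 1 was higher and 2 were lower, against 25.6% higher and 8.74% lower over all measured genes. GRK5, a receptor kinase, had 1477 CPM in TG and 1030 CPM in WT, a ratio of 1.43 that was not called. RGS6 had 28.2 CPM in TG and 15.6 CPM in WT, and RGS2, a brake on Gq, had 0.732 CPM in TG and 3.41 CPM in WT. On the branch of phospholipase C and protein kinase C, 4 of 13 were higher and 1 lower. PLCB1, a phospholipase driven by Gq, had 24.5 CPM in TG and 166 CPM in WT (ratio 0.147, 0.139 to 0.156). PRKCB had 14.4 CPM in TG and 2.38 CPM in WT, and PRKCE 305 CPM in TG and 455 CPM in WT without a call.

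In the lists of transcription genes were called lower and none higher, against 8.74% lower and 25.6% higher over all measured genes of the class. Of 7 genes of the CREB family 2 were lower and 0 higher: CREM, whose short form ICER represses cAMP-driven transcription, had 66.6 CPM in TG and 116 CPM in WT, and CRTC1 had 14.6 CPM in TG and 23.2 CPM in WT. CRTC3 had 129 CPM in TG and 182 CPM in WT and was not called. Of 12 transcripts that cAMP is known to induce, a list that also holds CREM, 6 were lower and 0 higher. The part of cAMP in these levels was not tested. ATF3 had 3.38 CPM in TG and 37.8 CPM in WT, FOSB had 1 UMI in TG and 128 in WT, and PPARGC1A had 557 CPM in TG and 725 CPM in WT without a call.

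**Figure D5:**
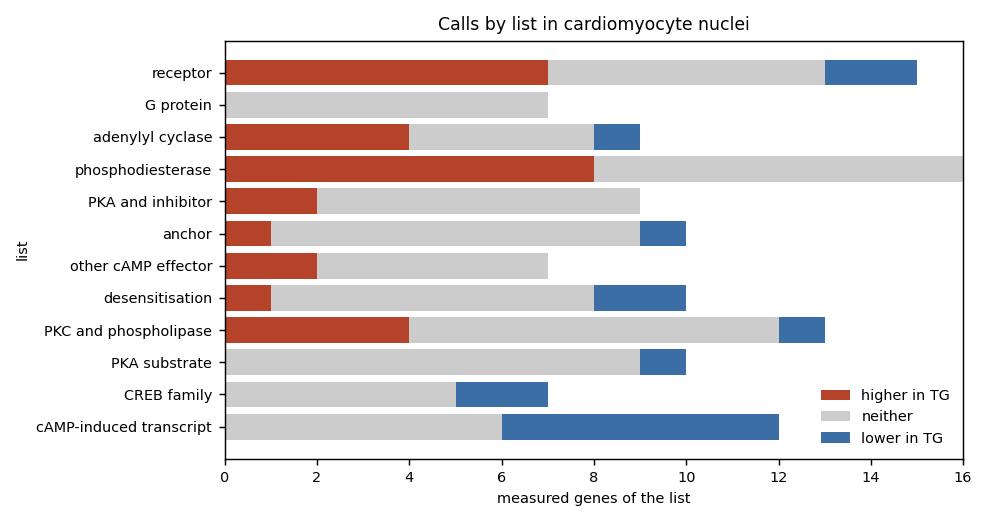
Number of measured genes in each pathway list that were called higher in TG (red), called neither way (grey) or called lower in TG (blue) in cardiomyocyte-like nuclei. The phosphodiesterase list had 8 higher and 0 lower, and the list of cAMP-induced transcripts 0 higher and 6 lower. Over all measured genes of the class 25.6% were called higher and 8.74% lower.

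The 9 genes did not share one pattern over the classes. Pearson correlations of log2(CPM + 1) over 16 profiles, 8 classes in 2 libraries that share, within a library, their depth and free RNA, describe which genes ran most alike among 6879 with a symbol and at least 50 CPM somewhere. ADRA1A was most like MYO18B (0.968), MYOZ2 (0.961) and MIGA2 (0.960), of which MYOZ2 encodes a protein of the muscle Z-disc. ADCY5 was most like RBPMS2 (0.973), ARHGAP44 (0.972) and NCBP1 (0.954). ADCY6 was most like PRKAA2 (0.967), FLYWCH1 (0.952) and RRAD (0.951). For PDE4D they were NCEH1 (0.946), AP1S2 (0.931) and PTDSS1 (0.919), and for PDE3B SUCLG2 (0.902), CISD2 (0.849) and CCDC66 (0.849). PDE4B was most like EPB41L3 (0.839), PFKFB2 (0.828) and SPI1 (0.798), a transcription factor of macrophages. PRKCA reached 0.831 with RAI1, and PRKACA 0.821 with ARHGAP24. ADRB1, with a highest level of 1.45 CPM, was too low for this description to carry weight.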

How the data were processed

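The deposited files are counts of UMIs, 1 matrix per library, from nuclei captured with the Chromium 3' v3.1 chemistry according to the labels' protocols. The submitters' processing notes name Seurat 3.1.1 and Cell Ranger 3.1.0 with the build Sscrofa11.1, while Cell Ranger 5.0.0 is named in the files, per the file headers; whether intron reads were counted is not given in the sources used here. Levels were compared between genes per kb; shares of the UMIs of a gene family are not adjusted for gene length. Symbols came from the matrices (16498) and a table of gene names (841 more), and gene positions from RefSeq on the same build.

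Nuclei with at least 500 genes and at most 5% mitochondrial UMIs were kept and clustered (Python 3.11.15, scanpy 1.11.5, leidenalg 0.10.2, igraph 0.11.9) on 2000 variable genes without the pathway genes, 30 components and 15 neighbours, at resolution 1. Clusters were named from fixed markers, of which 60% (minimum 3) had to be present at 20 CPM with a log2 fold over baseline of 1 or more. No doublet caller was used; mixed clusters and nuclei with cardiomyocyte signal were set aside. The naming rule, the merging of pericyte-like and smooth muscle-like clusters into a mural-like class and the 0.2% limit were set after the clusters were seen. Thinning to 1000 UMIs left out 362 WT and 0 TG nuclei with fewer. Intervals are exact Poisson for CPM and conditional binomial for ratios (scipy 1.17.1), at 95%. TMM factors came from edgeR 4.0.16 in R 4.3.3, used for scaling only. In the subtraction, the cardiomyocyte profile of the same library was removed outside cardiomyocyte-like nuclei at the lower of the shares that RYR2 and CTNNA3 give, an alternative chosen after seeing the data, as were the single clusters, the classes without 1 cluster, the other limits than 0.2% and the nuclei without endothelial marker UMIs.

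All 9 genes are named. In each pathway list the rule names the gene of highest CPM and the 2 called genes with the largest log2 ratio in cardiomyocyte-like nuclei, and at most 2 called genes in the other class with most calls. Some genes of the lists are not reported here. The genes, the lists and the markers were chosen with earlier results of these data known. The calling procedure was tested on simulated data.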

Additional observations from a re-analysis of the deposited data

Results flagged for a closer look

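For 3 of the genes the direction of the TG over WT difference was opposite in a pair of classes, which is what brought them here; with 1 library per genotype these differences were not tested. ADCY5 was higher in TG macrophage-like nuclei (log2 ratio 1.97) and lower in TG cardiomyocyte-like nuclei (-0.88), a gap of 2.85 on the log2 scale. The macrophage-like value rests on 42 TG and 29 WT UMIs. PDE4D was higher in TG T or NK-like nuclei (1.16) and lower in TG macrophage-like nuclei (-0.77), a gap of 1.93. PDE3B was higher in TG mural-like nuclei (2.34) and lower in TG T or NK-like nuclei (-0.88), a gap of 3.22. With the profile of the whole library subtracted, the gene was left at 0 CPM in both libraries in the class with the higher ratio, for all 3 genes. The lower ratios stayed called, but nothing was subtracted in cardiomyocyte-like nuclei, so the ADCY5 call could not change. PDE4D in macrophage-like nuclei was left at 0 CPM in TG and 3843 CPM in WT. PDE3B in T or NK-like nuclei was at 960 CPM in TG and 1933 CPM in WT.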

How the results depend on the processing

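No paired analysis was possible because each genotype has 1 library. Of 1274 recomputed log2 ratios under 36 alternatives, 996 stayed within the counting interval of the reported value, 270 left it and 8 called ratios took the other sign. Of 30 called pairs, 3 kept their call under every alternative that held the class: PRKCA in macrophage-like, T or NK-like and Schwann or neural-like nuclei. ADCY5 in cardiomyocyte-like and PDE3B in T or NK-like nuclei lost it under 1 alternative, the fold of 2. The number of genes called in cardiomyocyte-like nuclei, 1 as reported, was 2 under edgeR TMM, median-of-ratios scaling, thinning, cluster 1 alone and cluster 8 alone, and 0 at a fold of 2. The number of called pairs, 30 as reported, was 18 with mixed clusters counted in, 12 with the library profile subtracted and 19 at a fold of 2. Of the pairs reported as higher, only PDE3B in macrophage-like nuclei was still called higher with the library profile subtracted. ADCY5 in vascular endothelial-like nuclei reversed with each library clustered on its own (-0.067), mixed clusters counted in (-0.56) and cluster 15 alone (-0.17). With mixed clusters counted in, ADCY5 in T or NK-like nuclei was -0.17. With the library profile subtracted, PDE3B in fibroblast-like nuclei was -7.53, a value set by the amount added to 0 counts in TG. With each library clustered on its own, ADRA1A in macrophage-like nuclei was -0.11. ADRA1A in fibroblast cluster 5, with 0 UMIs in 24 WT nuclei, was -0.14, and ADCY6 in fibroblast cluster 16 was -0.010. The cause of these changes was not tested. Median-of-ratios scaling moved the median log2 ratio of all genes by -0.16 in cardiomyocyte-like and -0.22 in macrophage-like nuclei, so ratios near the threshold depend on the scaling. Depth limits ADRB1 everywhere and every pair with few UMIs.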

Other observations

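The classes with too few nuclei for a comparison held high levels of single genes. Dendritic-like nuclei, 25 in TG and 120 in WT, had 4636 CPM of PDE4B in TG (4239 to 5060) and 8310 CPM in WT (8093 to 8531), above the macrophage-like level in each library. Mast-like nuclei, 21 in TG and 48 in WT, had 2765 CPM of PDE4D in TG and 5399 CPM in WT, and 513 CPM of PRKCA in TG and 1203 CPM in WT. Adipocyte-like nuclei, 27 in TG and 12 in WT, had 1355 CPM of PDE3B in TG (1168 to 1563) and 3428 CPM in WT (3017 to 3880). No ratio was formed for these classes.

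Outside cardiomyocyte-like nuclei, the list of transcripts that cAMP induces held genes called both ways. In mural-like nuclei 8 of 12 were lower and 1 higher, against 7.61% and 18.0% of all measured genes, and ATF3 had 54.6 CPM in TG and 687 CPM in WT. In vascular endothelial-like nuclei 8 of 12 were lower and 0 higher, against 7.67% and 11.9%. In fibroblast-like nuclei 6 of 12 were lower and 0 higher, against 8.91% and 17.0%, and in lymphatic endothelial-like nuclei 6 of 12 were lower and 2 higher, against 8.26% and 12.2%. In macrophage-like nuclei 0 of 11 were lower and 4 higher, against 7.93% and 20.7%, and in T or NK-like nuclei 0 of 11 were lower and 3 higher, against 10.4% and 20.5%. Whether the classes differ in this was not tested. RGS2 had 7.61 CPM in TG and 25.7 CPM in WT vascular endothelial-like nuclei, and ARRB1, an arrestin, 60.6 CPM in TG and 119 CPM in WT. PTGER3 had 115 CPM in TG and 30.9 CPM in WT fibroblast-like nuclei, and AKAP7 69.7 CPM in TG and 201 CPM in WT. In T or NK-like nuclei PDE10A had 80.3 CPM in TG and 21.2 CPM in WT. RAPGEF4 had 197 CPM in TG and 77.0 CPM in WT mural-like nuclei. PRKD1, a kinase downstream of protein kinase C, had 114 CPM in TG and 39.1 CPM in WT lymphatic endothelial-like nuclei. GNAQ had 1165 CPM in TG and 1885 CPM in WT macrophage-like nuclei.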
